A study of Rattus norvegicus with 120 samples.

Results

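The genes described here are Egf and 5 partners that take part in magnesium handling by the distal tubule of the kidney: Cnnm2, Fxyd2, Kcnj16, Kcnj10 and Trpm6. Each gene was read from probe sets that the probe annotation assigns to it alone, and from the one with the highest mean over all 120 arrays where there were several. Of the 6 genes, 5 had such a probe set, out of 14217 genes on the array, and 4 of these (Egf, Cnnm2, Fxyd2 and Kcnj16) were bright enough to enter the test, among 10663 genes. The probe sets were 1368325_at for Egf, 1382269_at for Cnnm2, 1387799_at for Fxyd2, 1373991_at for Kcnj16 and 1387467_at for Kcnj10. Kcnj10 was too dim to be tested and Trpm6 had no probe set of its own.

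The data were RNA profiles of whole kidneys from 120 Sprague-Dawley rats, all male and labelled 5 to 7 weeks old, each hybridized to 1 Affymetrix Rat 230 2.0 array. The age label is the same after 1 and after 28 daily doses, so it cannot be the age at death of all rats. The rats were injected intraperitoneally once a day with olive oil as vehicle, with cyclosporine (CsA) at 2.5 or 25 mg/kg, with tacrolimus (FK506) at 0.6 or 6 mg/kg, or with rapamycin (Rapa) at 1 or 10 mg/kg. They were killed 24 hours after their final dose, having received 1, 7, 14 or 28, which gave 28 groups. Groups held 4 rats up to day 14, apart from 3 at FK506 6 mg/kg on that day. Vehicle had 5 rats on day 28, as did the lower CsA dose and the higher FK506 dose, CsA 25 mg/kg had 4, and the remaining 3 arms had 6. Different rats were killed on each day, and the drugs were given at different mg/kg, so no pair of drugs was compared at a matched dose.

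Most filtered magnesium is taken back in the thick ascending limb, and the distal convoluted tubule sets the final amount through the channel TRPM6 in its luminal membrane. Egf encodes the membrane-bound precursor of epidermal growth factor, which is cut to a peptide that acts on the EGF receptor of the same segment and raises TRPM6 activity. CNNM2 sits in the basolateral membrane, FXYD2 is the small gamma subunit of the sodium pump, and KCNJ10 (Kir4.1) and KCNJ16 (Kir5.1) form the basolateral potassium channel that holds the membrane voltage. CsA and FK506 inhibit the phosphatase calcineurin, which activates NFAT transcription factors, and renal magnesium loss is a known side effect of both in patients. Rapa binds the same intracellular protein as FK506 but inhibits the kinase mTOR.

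The promoter stretches of the 2 members with the largest falls, Egf and Cnnm2, are shown because NFAT is the best-known target of calcineurin. They are RefSeq sequences on build GRCr8, 5′ to 3′ on the gene's strand, limited to bases outside the annotated gene: chr2:220976332-220976547 on the minus strand for Egf (216 bases) and chr1:255584902-255585062 on the plus strand for Cnnm2 (161 bases). Capitals mark the NFAT core letters GGAAA or their reverse complement TTTCC.
Egf: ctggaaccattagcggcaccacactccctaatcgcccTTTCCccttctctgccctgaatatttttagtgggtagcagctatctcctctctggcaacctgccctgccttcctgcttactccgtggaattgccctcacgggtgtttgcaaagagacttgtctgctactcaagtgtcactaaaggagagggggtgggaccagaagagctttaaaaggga
Cnnm2: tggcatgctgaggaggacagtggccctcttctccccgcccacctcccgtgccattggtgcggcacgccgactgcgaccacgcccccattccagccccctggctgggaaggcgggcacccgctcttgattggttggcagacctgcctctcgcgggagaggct
The search on both strands covered the 250 bases before the start given by each promoter entry. For Egf and Cnnm2 this window reached 34 and 89 bases into the annotated gene. The Egf window held 1 NFAT core and the Cnnm2 window held 0, while 56.9% of 33469 rat promoters of this length held at least 1. Of the 6 genes, 5 had a promoter entry (7 entries in all). The Kcnj16 window held 2 cores, the Kcnj10 window 0 and each of the 3 Trpm6 windows 1. The Kcnj16 window and 2 of the Trpm6 windows lay inside the annotated gene. These 2 Trpm6 windows were nearly the same stretch and shared 1 core. The letters TATAAA, found in 12.9% of all promoters, and GTTAAT, part of the site of the kidney transcription factor HNF1 and found in 6.45%, matched none of the 7 windows. The Cnnm2 window was rich in G and C (67.2%, against 51.6% for the Egf window and a median of 51.2% over all promoters). These matches describe the letters only.

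Levels below are log2(intensity + 16) after quantile normalization, and a change is a difference of such levels with its standard error (SE). Each change was tested with limma across all 10663 genes, and a gene was called at a Benjamini-Hochberg adjusted p under 0.05. Array signal depends on the probe, so levels are compared between groups for 1 gene and never between genes. Where all rats of 1 group lie below all rats of another, this describes the gene named. The share of all genes that do so is not given here. In whole kidney, fewer cells of a type and less RNA per cell cannot be told apart.

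Intensity medians per array were 51.99 to 86.08. One array, replicate 3 of CsA 25 mg/kg on day 28, held every one of the 5273 zero values, but each tested member had a signal there (Egf at an intensity of 3607, Cnnm2 at 182, Fxyd2 at 7800 and Kcnj16 at 4548). The log2 level of Alb, a liver gene, was above 12 in 4 arrays: replicates 3 and 4 of CsA 25 mg/kg on day 1, and 1 array each of CsA 2.5 mg/kg on days 14 and 28. On day 7 the log2 signal ratio between the 3-prime and 5-prime Gapdh control probe sets, a measure of RNA integrity, had a mean of 0.764 in vehicle and 0.846 in CsA 2.5 mg/kg, against 0.397 to 0.444 in the other arms. On day 1 it was 0.684 in Rapa 1 mg/kg and 0.728 in Rapa 10 mg/kg, against 0.307 to 0.398 in the other arms. The ratio also differed within groups. Replicate 4 of CsA 2.5 mg/kg on day 7 had 0.38, against 0.832 to 1.279 in the other rats of its group. Replicate 4 of FK506 6 mg/kg on day 1 had 0.618, against 0.277 to 0.352. The hybridization controls had a mean log2 level of 9.15 in FK506 6 mg/kg and 9.66 in Rapa 1 mg/kg on day 28, against 10.38 to 10.95 in the other arms of that day. The kidney label was borne out by bright Umod (mean log2 level 13.69) and Slc34a1 (13.69), and Slc12a3, the defining marker of the distal convoluted tubule, had a mean of 9.13.

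Egf was the member that moved most. It fell under CsA 25 mg/kg and under both FK506 doses from day 7 on, it was lower on day 28 than on day 1 in each of these arms, and it was called in no group given CsA 2.5 mg/kg or Rapa. Vehicle rats held a narrow level after any number of doses: 12.99, 13.13, 13.21 and 13.05 on day 1, and 13.13, 13.22, 13.20, 13.23 and 13.23 on day 28. The vehicle means were 13.10 ± 0.09 (SD, n = 4), 13.12 ± 0.06 (n = 4), 13.16 ± 0.06 (n = 4) and 13.20 ± 0.04 (n = 5) over the 4 days. None of the 4 tested members was called between vehicle on day 7, 14 or 28 and vehicle on day 1 (limma, 0 of 12 values, and 0 also at an unadjusted p under 0.05), where 3.89%, 0.366% and 2.08% of all genes were called.

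**Figure D1:**
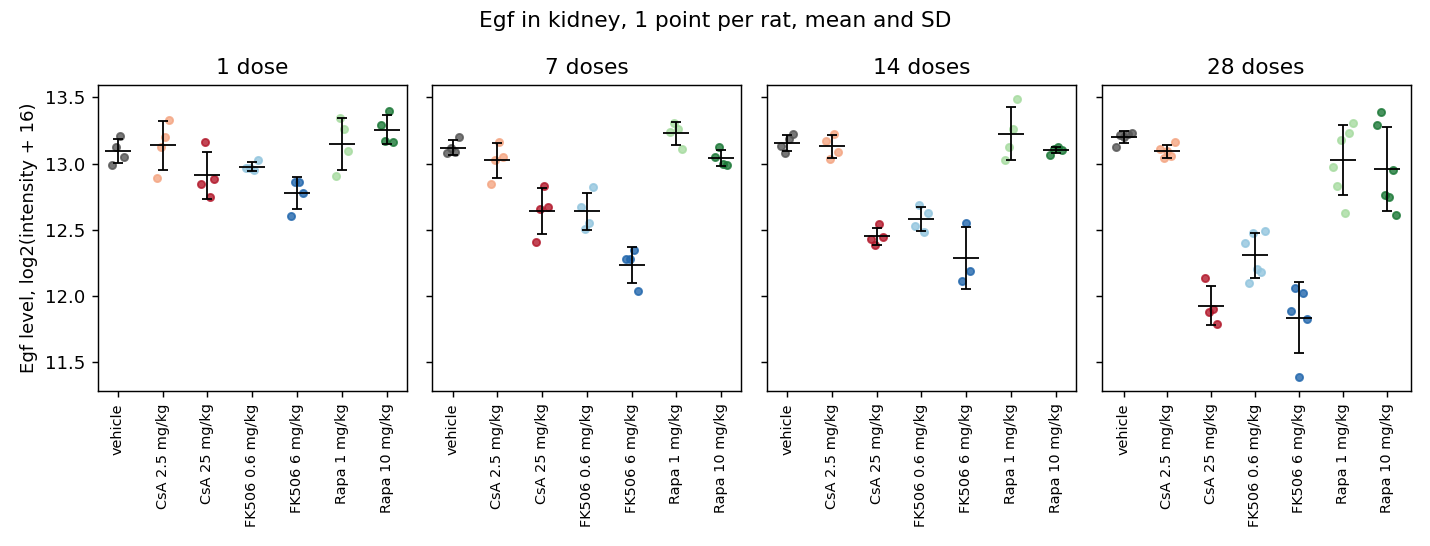
Egf level, log2(intensity + 16), in each rat (points) with the group mean and SD (bars), in 1 panel per number of doses and with the 7 treatments along the horizontal axis. Vehicle means stay between 13.10 and 13.20, while CsA 25 mg/kg and FK506 6 mg/kg descend to 11.93 and 11.84 on day 28.

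In the CsA 25 mg/kg arm the 4 Egf levels were 12.85, 13.16, 12.75 and 12.88 on day 1 and overlapped vehicle. They were 12.41, 12.66, 12.83 and 12.67 on day 7, and 12.43, 12.38, 12.54 and 12.44 on day 14. On day 28 they were 12.14, 11.88, 11.90 and 11.79. From day 7 on every CsA 25 mg/kg rat lay below every vehicle rat of its day. The change from vehicle was -0.18 on day 1 (SE 0.11, adjusted p = 0.868). Egf then fell by 0.48 on day 7 (adjusted p = 0.00574), by 0.71 on day 14 (adjusted p = 6.28e-06) and by 1.27 on day 28 (SE 0.11, adjusted p = 1.58e-16). The day 28 mean of 11.93 ± 0.15 (SD, n = 4) was 41.4% of the vehicle level on the linear scale. The day 7 fall was -0.39 (adjusted p = 0.0588) with the Gapdh ratio as a covariate.

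FK506 6 mg/kg gave Egf levels of 12.60, 12.86, 12.86 and 12.78 on day 1, all below the vehicle rats, with a change of -0.32 that was not called (adjusted p = 0.538). The levels were 12.28, 12.28, 12.34 and 12.04 on day 7, and 12.12, 12.55 and 12.19 on day 14. On day 28 they were 11.88, 12.06, 11.39, 12.02 and 11.82, with replicate 3 the lowest level of the gene in any of the 120 rats. No treated rat reached the vehicle range on any day. Egf fell by 0.89 on day 7 (adjusted p = 3.2e-08), to 54.1% of vehicle, and by 0.87 on day 14 (SE 0.12, adjusted p = 1.44e-06). By day 28 it had fallen by 1.36 (SE 0.10, adjusted p = 7.61e-20), to 38.8% of vehicle, which was the 18th lowest log2 change of 10663 genes in that comparison.

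The lower FK506 dose of 0.6 mg/kg gave the same direction. On day 1 its Egf levels of 12.96, 12.96, 12.95 and 13.03 overlapped vehicle (change -0.12, adjusted p = 1). They were 12.67, 12.50, 12.55 and 12.82 on day 7, and 12.53, 12.69, 12.48 and 12.62 on day 14. On day 28 the 6 rats ran from 12.10 through a median of 12.30 to 12.49. All rats from day 7 on lay below all vehicle rats of their day. Egf fell by 0.48 (adjusted p = 0.0108), 0.57 (adjusted p = 0.00476) and 0.89 (SE 0.10, adjusted p = 5.98e-11) on days 7, 14 and 28, the last to 53.9% of vehicle. The day 7 call was lost with the Gapdh ratio as a covariate (-0.39, adjusted p = 0.12) and without FK506 0.6 mg/kg replicate 2 of that day (-0.44, adjusted p = 0.0508).

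CsA 2.5 mg/kg rats held Egf at 13.11, 13.04, 13.09, 13.06 and 13.16 on day 28, a mean of 13.09 ± 0.05 (SD, n = 5) that was close to vehicle. Their changes from vehicle were 0.04, -0.10, -0.03 and -0.11 over the 4 days. Under Rapa 10 mg/kg the changes were 0.16, -0.08, -0.06 and -0.24, and under Rapa 1 mg/kg they were 0.05, 0.11, 0.07 and -0.17. None of these 12 values was called. The largest, Rapa 10 mg/kg on day 28, had an adjusted p of 0.0801, and its 6 rats were widely spread, from 12.61 through a median of 12.86 to 13.39 (mean 12.96 ± 0.32). The 6 rats of Rapa 1 mg/kg ran from 12.63 through 13.08 to 13.31 on that day. Both Rapa arms overlapped vehicle, with rats above and below its range on day 28.

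The fall of Egf was larger on day 28 than on day 1 under CsA 25 mg/kg and both FK506 doses. This growth was tested as a difference of differences. It was not seen at every step, since under FK506 6 mg/kg the change was -0.89 on day 7 and -0.87 on day 14. Between day 1 and day 28 the Egf change from vehicle moved by -1.09 (SE 0.16, adjusted p = 1.1e-06) for CsA 25 mg/kg, where 2.14% of genes were called lower in this comparison. The same shift was -1.05 (SE 0.15, adjusted p = 8.51e-06) for FK506 6 mg/kg (1.42% of genes) and -0.78 (SE 0.15, adjusted p = 0.00354) for FK506 0.6 mg/kg (0.0375% of genes). Egf was the 1 member called in each of these comparisons. For Rapa 10 mg/kg the Egf shift was -0.40 (adjusted p = 0.102). Between day 7 and day 28 the shift was -0.79 (adjusted p = 0.00069) for CsA 25 mg/kg, with 3.03% of genes called lower. For FK506 6 mg/kg it was -0.48 (adjusted p = 0.0494, 2.04% of genes), a call lost in several other settings. Of these, the hybridization controls as a covariate moved it most (-0.34, adjusted p = 0.276). It was also lost without any 1 of most of the 18 rats left out in turn (adjusted p up to 0.163).

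Egf also differed between doses of a drug. The higher CsA dose was below CsA 2.5 mg/kg by -0.38 on day 7 (adjusted p = 0.0481), -0.68 on day 14 and -1.17 on day 28 (adjusted p = 1.94e-14), but not detectably on day 1 (-0.23). The day 7 call was lost without any 1 of 6 rats (adjusted p 0.087 to 0.205) and in 5 other settings, of which the Gapdh covariate moved it most (-0.27, adjusted p = 0.336). FK506 6 mg/kg was below FK506 0.6 mg/kg by -0.47 on day 28 (adjusted p = 0.00305). That call rested on the lowest rat: without FK506 6 mg/kg replicate 3 the difference was -0.36 (adjusted p = 0.0626), and with the hybridization controls as a covariate it was -0.35 (adjusted p = 0.145). On day 7 the FK506 dose difference was -0.40 (adjusted p = 0.33). The lower FK506 dose was also below the lower CsA dose, by -0.55 on day 14 (adjusted p = 0.0043) and -0.79 on day 28 (adjusted p = 1.29e-08).

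The drugs were then compared directly. For Egf, FK506 6 mg/kg was below Rapa 10 mg/kg on every day, by -0.48 (adjusted p = 0.0121), -0.81, -0.81 and -1.12 (adjusted p = 5.57e-16) in order of days. The day 1 call was lost with the Gapdh covariate (-0.39, adjusted p = 0.148), without FK506 6 mg/kg replicate 1 (-0.42, adjusted p = 0.0791) and without Rapa 10 mg/kg replicate 3 (-0.43, adjusted p = 0.0633). On day 28 this was the 9th lowest log2 difference of 10663 genes. The higher CsA dose was below Rapa 10 mg/kg by -0.35 on day 1 (adjusted p = 0.0479), -0.40 on day 7, -0.65 on day 14 and -1.03 on day 28 (adjusted p = 8.82e-13). Its day 1 call was lost when the 4 arrays in which Alb was high were left out (-0.25, adjusted p = 0.481), with the Gapdh covariate (-0.25, adjusted p = 0.332), in 2 further settings and without any 1 of 7 rats (adjusted p 0.0568 to 0.192). The day 7 call was lost without CsA 25 mg/kg replicate 1 (-0.32, adjusted p = 0.0885) or Rapa 10 mg/kg replicate 2 (-0.37, adjusted p = 0.0525). The higher doses of CsA and FK506 were not called apart. Their Egf difference was 0.13 on day 1, 0.41 on day 7 (95% interval 0.18 to 0.63, adjusted p = 0.0555), 0.16 on day 14 and 0.09 on day 28 (95% interval -0.12 to 0.31). The day 7 difference was called in 4 of 12 other settings (adjusted p 0.0247 to 0.0485), and at 0.48 without CsA 25 mg/kg replicate 1 (adjusted p = 0.0272).

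Ordered by mean, the 28 groups ran from Rapa 10 mg/kg on day 1 (13.26) to FK506 6 mg/kg on day 28 (11.84), a range of 1.42. Most neighbours in that order did not differ beyond their spread. Of 27 gaps between neighbours 2 were wider than the larger SD of the pair: one of 0.13 between FK506 0.6 mg/kg and CsA 25 mg/kg, both on day 14, and one of 0.31 between FK506 6 mg/kg on day 7 and CsA 25 mg/kg on day 28. Below the second gap lay the day 28 groups of CsA 25 mg/kg and FK506 6 mg/kg.

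Cnnm2, the basolateral membrane protein whose loss causes inherited magnesium wasting, was lower in the arms in which Egf was lower. Its level was modest (mean intensity 224.8, at the 55.7th percentile of genes). Vehicle rats had levels of 7.98, 7.98, 8.01 and 8.18 on day 1, and 7.82, 8.13, 7.98, 8.12 and 8.24 on day 28. In the CsA 25 mg/kg arm they were 7.55, 7.53, 7.85 and 7.47 on day 1, and 7.29, 7.43, 7.75 and 7.37 on day 28. Each of these treated rats lay below each vehicle rat of its day. The change on day 1 was -0.43 (SE 0.12, adjusted p = 0.0522), just short of a call, and it was called at -0.42 without quantile normalization (adjusted p = 0.0425). Cnnm2 fell by 0.47 (adjusted p = 0.00914), 0.50 (adjusted p = 0.00287) and 0.60 (adjusted p = 2.9e-05) on days 7, 14 and 28, the last to 66.1% of vehicle.

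**Figure D2:**
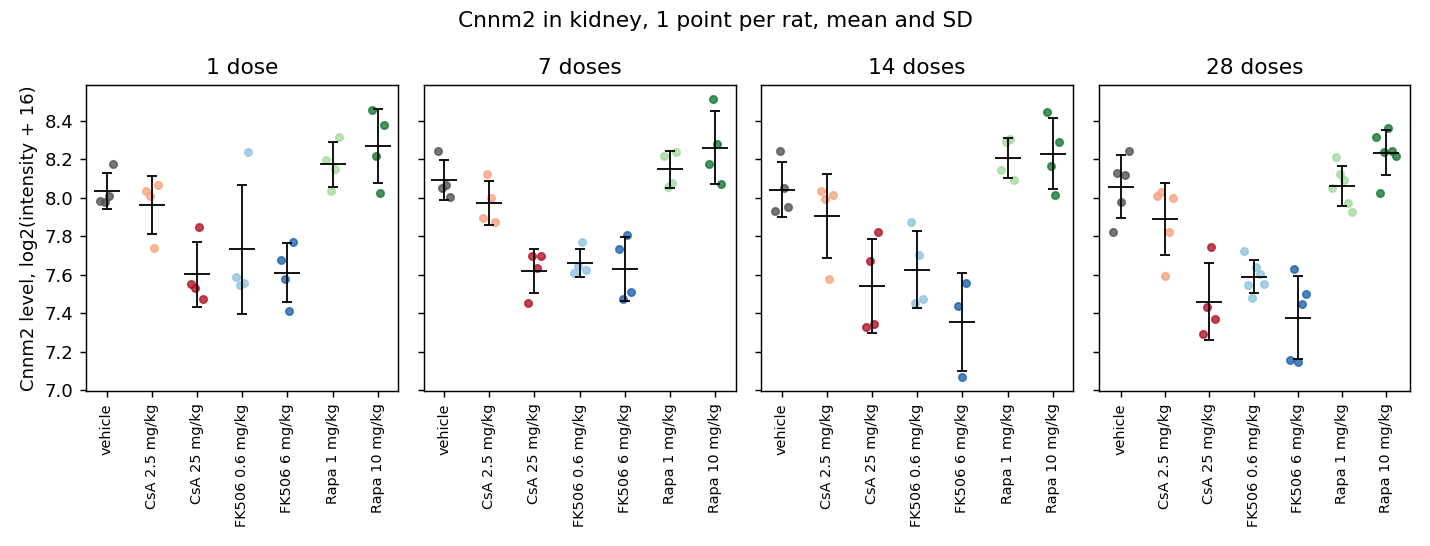
Cnnm2 level, log2(intensity + 16), in each rat (points) with the group mean and SD (bars), in 1 panel per number of doses and with the 7 treatments along the horizontal axis. On day 1 the CsA 25 mg/kg rats, at 7.47 to 7.85, are already below the vehicle rats, at 7.98 to 8.18.

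FK506 6 mg/kg gave Cnnm2 levels of 7.67, 7.58, 7.41 and 7.77 on day 1, and 7.44, 7.07 and 7.56 on day 14. On day 28 the levels were 7.16, 7.63, 7.14, 7.45 and 7.50. These rats were all below the vehicle rats of their day. The change was -0.43 on day 1 (adjusted p = 0.241), and Cnnm2 fell by 0.46 (adjusted p = 0.0138), 0.69 (adjusted p = 0.000333) and 0.68 (adjusted p = 9.99e-07) on days 7, 14 and 28. The day 7 call was lost without FK506 6 mg/kg replicate 2 (-0.41, adjusted p = 0.0777) or replicate 4 (-0.42, adjusted p = 0.062), and with the Gapdh ratio as a covariate (-0.42, adjusted p = 0.0654). The day 28 mean of 7.38 ± 0.22 (SD, n = 5) was 62.4% of vehicle.

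At FK506 0.6 mg/kg 3 rats of day 1 were low for Cnnm2 (7.59, 7.55 and 7.56) and 1 was above every vehicle rat (8.24), and the change of -0.30 was not called (adjusted p = 1). On day 28 the 6 rats ran from 7.48 through 7.58 to 7.72, all below vehicle. Cnnm2 fell by 0.43 on day 7 (adjusted p = 0.0318) and by 0.47 on day 28 (adjusted p = 0.00193), with -0.42 on day 14 (adjusted p = 0.0569). The day 7 call was lost without any 1 of 3 vehicle rats (replicates 1, 3 and 4) or 3 treated rats (replicates 1, 2 and 4), at adjusted p from 0.0528 to 0.105, and with the Gapdh ratio as a covariate (-0.39, adjusted p = 0.153). CsA 2.5 mg/kg gave -0.07, -0.12, -0.14 and -0.17, none called.

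Under Rapa 10 mg/kg the mean of Cnnm2 was above vehicle on every day, by 0.23, 0.17, 0.19 and 0.18, but none of these values was called (adjusted p 0.256 to 0.43). On day 28 its 6 rats ran from 8.02 through 8.24 to 8.36, overlapping vehicle. Set directly against Rapa 10 mg/kg, Cnnm2 was called lower on all 4 days in both higher-dose calcineurin inhibitor arms, including day 1. The differences were -0.66, -0.63, -0.88 and -0.86 for FK506 6 mg/kg (adjusted p from 0.00038 down to 4.39e-10), and -0.67, -0.64, -0.69 and -0.77 for CsA 25 mg/kg.

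A shift of the Cnnm2 effect with time was not detected. From day 1 to day 28 it was -0.16 in the CsA 25 mg/kg arm (adjusted p = 0.63) and -0.26 in the FK506 6 mg/kg arm (adjusted p = 0.418). Between doses, CsA 25 mg/kg was below CsA 2.5 mg/kg by -0.36 on day 14 (adjusted p = 0.0488) and -0.43 on day 28 (adjusted p = 0.00307). The day 14 call was lost in 7 of 12 other settings (adjusted p 0.0505 to 0.146) and without any 1 of 5 rats (adjusted p 0.12 to 0.193). The 28 group means of Cnnm2 spanned 0.91, and none of 27 gaps between neighbours was wider than the larger SD. The 4 highest means were the 4 days of Rapa 10 mg/kg, and the 12 lowest were those of CsA 25 mg/kg and of both FK506 doses.

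**Figure D3:**
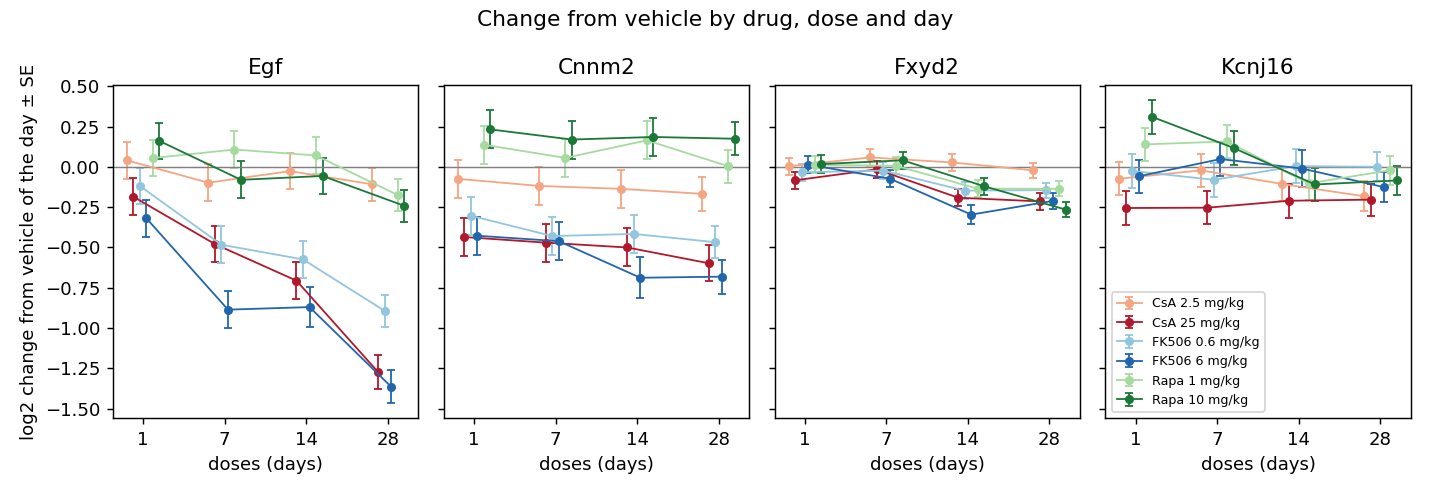
Change from the vehicle rats of the same day (log2) with its SE, for Egf, Cnnm2, Fxyd2 and Kcnj16 in 1 panel each, against the number of daily doses, with 1 line per drug and dose. Egf moves from -0.18 to -1.27 under CsA 25 mg/kg and from -0.32 to -1.36 under FK506 6 mg/kg, Cnnm2 is already at -0.43 in both on day 1, and Fxyd2 stays within 0.30 of vehicle.

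Fxyd2, the regulatory subunit that tunes the sodium pump of the distal tubule, was called on days 14 and 28 only, with small falls, under Rapa as well as under the calcineurin inhibitors. Vehicle rats on day 28 had levels of 13.18, 13.13, 13.15, 13.17 and 13.18. The CsA 25 mg/kg rats had 12.97, 12.98, 12.95 and 12.90, and FK506 6 mg/kg rats had 12.88, 13.00, 12.97, 12.94 and 12.97. The 6 Rapa 10 mg/kg rats ran from 12.68 through 12.88 to 13.04, and those of Rapa 1 mg/kg from 12.96 through 13.03 to 13.10. All rats of these 4 arms lay below all vehicle rats, as did those of FK506 0.6 mg/kg, which ran from 12.87 to 13.11. On day 28 Fxyd2 fell by 0.21 under CsA 25 mg/kg (SE 0.05, adjusted p = 0.0009, 86.2% of vehicle) and by 0.21 under FK506 6 mg/kg (adjusted p = 0.000719). The fall under Rapa 10 mg/kg was 0.26 (adjusted p = 8.77e-06, 83.2% of vehicle). Under Rapa 1 mg/kg the value was -0.14 (adjusted p = 0.0406), a call lost without any 1 of the 5 vehicle rats of that day. It was also lost in several other settings, among them without quantile normalization (-0.11, adjusted p = 0.227). FK506 0.6 mg/kg gave -0.14 (adjusted p = 0.0508).

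**Figure D4:**
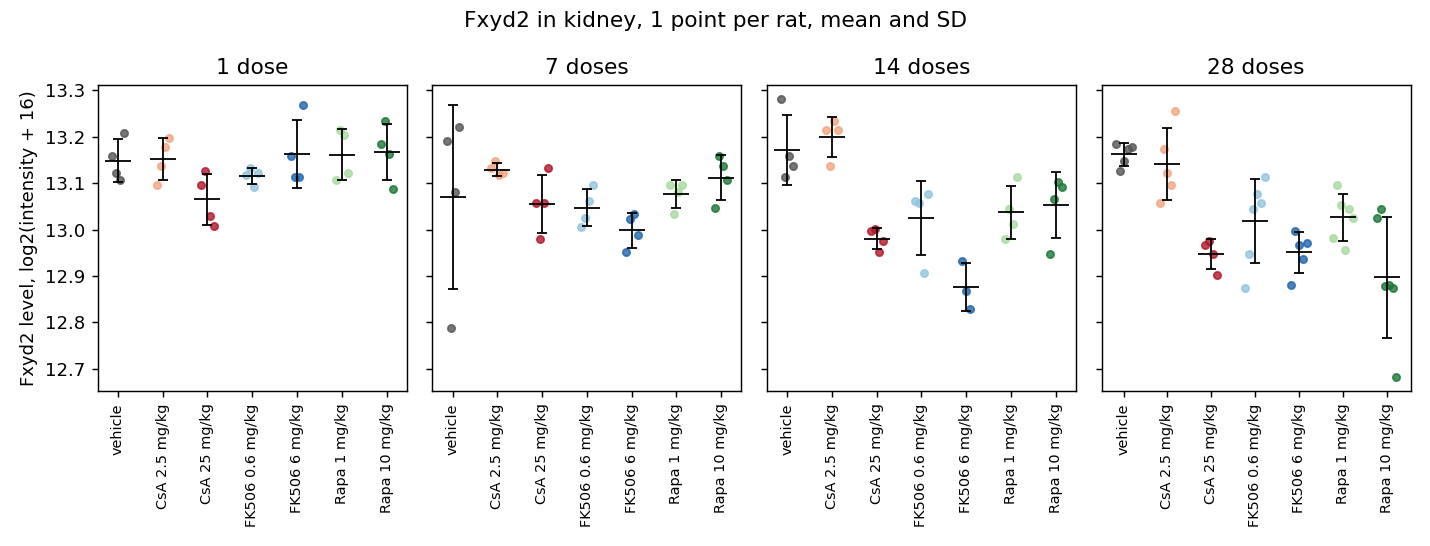
Fxyd2 level, log2(intensity + 16), in each rat (points) with the group mean and SD (bars), in 1 panel per number of doses and with the 7 treatments along the horizontal axis. On day 28 vehicle rats lie between 13.13 and 13.18, and the rats of CsA 25 mg/kg, FK506 6 mg/kg and both Rapa doses lie at or below 13.10.

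On day 14 the 3 FK506 6 mg/kg rats had Fxyd2 levels of 12.93, 12.87 and 12.83, against 13.28, 13.11, 13.16 and 13.14 in vehicle. Fxyd2 fell there by 0.30 (adjusted p = 0.000712), to 81.5% of vehicle, and by 0.19 under CsA 25 mg/kg (adjusted p = 0.0132). The CsA call was lost without vehicle replicate 1, the highest of the 4 (-0.15, adjusted p = 0.0864). On days 1 and 7 the changes of Fxyd2 lay between -0.08 and 0.01 in these 2 arms, and none was called. Fxyd2 under Rapa 10 mg/kg was 0.02, 0.04 and -0.12 on days 1, 7 and 14. The shift of that effect from day 1 to day 28 was called (-0.28, adjusted p = 0.00648, 3.36% of genes lower), as was the shift from day 7 (-0.31, adjusted p = 0.00992, 0.975% of genes lower). Both calls were lost without quantile normalization (-0.26, adjusted p = 0.0583, and -0.17, adjusted p = 0.332). The shift from day 7 was also lost without vehicle replicate 2 of day 7, at 12.79 the lowest of its group (-0.21, adjusted p = 0.102). The 28 group means of Fxyd2 spanned only 0.32.

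Kcnj16, the Kir5.1 subunit of the basolateral potassium channel, was called by limma against vehicle in 0 of 24 comparisons, and had an unadjusted p under 0.05 in 5: all 4 days of CsA 25 mg/kg and day 1 of Rapa 10 mg/kg. Under CsA 25 mg/kg its values were lower on every day, at -0.26 (adjusted p = 0.502), -0.25 (0.164), -0.21 (0.217) and -0.20 (0.138). Without quantile normalization 2 of these were called, at -0.35 on day 7 (adjusted p = 0.0469) and -0.31 on day 28 (adjusted p = 0.0251). On day 1 the CsA 25 mg/kg rats had 12.06, 11.95, 11.88 and 11.84, all below the vehicle rats at 12.18, 12.21, 12.17 and 12.20. The Rapa 10 mg/kg rats had 12.53, 12.54, 12.37 and 12.57, all above them (change 0.31, adjusted p = 0.0873). The direct difference between these 2 drugs was called, at -0.57 on day 1 (adjusted p = 0.000109) and -0.37 on day 7 (adjusted p = 0.0123). FK506 6 mg/kg was below Rapa 10 mg/kg by -0.37 on day 1 (adjusted p = 0.0434). That call was lost with no dim filter (adjusted p = 0.0581), with all probe sets apart (0.075), with the Gapdh covariate (-0.41, adjusted p = 0.0863) and without any 1 of 7 rats (0.0553 to 0.159). The day 7 difference between CsA 25 mg/kg and Rapa 10 mg/kg was not called without Rapa 10 mg/kg replicate 1 (-0.29, adjusted p = 0.0851).

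Kcnj16 had a second probe set of its own (1370076_at, mean log2 level 11.51, against 12.23 for 1373991_at), and the 2 disagreed in places. Adjusted over all 31042 probe sets, the second one fell by 0.46 under CsA 25 mg/kg on day 28 (SE 0.13, adjusted p = 0.00846). There the probe set used gave -0.20. Under CsA 2.5 mg/kg on day 28 the second gave -0.37 (SE 0.12) and the one used -0.18 (SE 0.095), neither called. Under Rapa 10 mg/kg on day 1 the second gave -0.03, against 0.31 at the one used. Under FK506 6 mg/kg on day 7 it gave 0.36 (adjusted p = 0.194), and under Rapa 1 mg/kg on day 7 it gave 0.42 (adjusted p = 0.0737). Between CsA 25 mg/kg and Rapa 10 mg/kg it gave -0.30 on day 1 (adjusted p = 0.251) and -0.25 on day 7 (adjusted p = 0.372), neither called, and -0.35 on day 28 (adjusted p = 0.0464). Between FK506 6 mg/kg and Rapa 10 mg/kg on day 1 it gave -0.16 (adjusted p = 0.763).

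**Figure D5:**
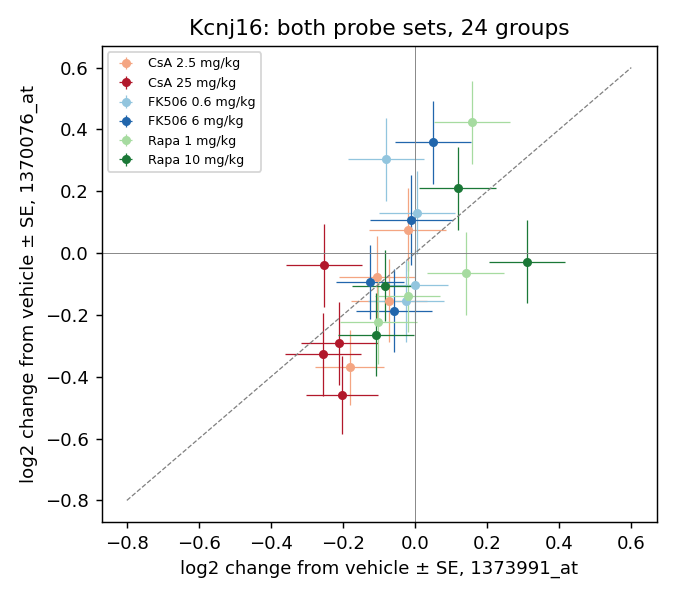
Change of Kcnj16 from vehicle (log2) with its SE at the probe set used (horizontal axis) and at the second probe set (vertical axis), 1 point for each of the 24 treated groups, with a dashed line of equal change. The points scatter around the line, and the Rapa 10 mg/kg point of day 1 lies at 0.31 on one axis and -0.03 on the other.

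Kcnj10, the Kir4.1 partner of Kcnj16, had a mean intensity of 20.5, at the 14.8th percentile of genes. Its group means ran from 4.65 to 5.61 with no gap between neighbours wider than the larger SD. When the filter on dim genes was dropped limma called it in 0 of 62 comparisons, with 3 at an unadjusted p under 0.05; under Rapa 10 mg/kg on day 1, for example, it gave -0.65 (adjusted p = 0.393). It was too dim on this array to give a direction. No level can be given for Trpm6.

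Counted over the 4 tested members, the calls against vehicle were all falls. Under CsA 25 mg/kg 0, 2, 3 and 3 of 4 members were lower on days 1, 7, 14 and 28, where 0.0563%, 1.8%, 3.14% and 10.7% of all genes were lower. The share on day 28 was 7.77% without the array that held the zeros. For FK506 6 mg/kg the counts were 0, 2, 3 and 3, against 0.0188%, 1.42%, 1.44% and 7.29% of genes, and at FK506 0.6 mg/kg they were 0, 2, 1 and 2, against 0%, 1.03%, 0.497% and 1.74%. On day 1 limma called 0 members in these 3 arms, but at an unadjusted p under 0.05 Cnnm2 and Kcnj16 were lower at CsA 25 mg/kg, Egf and Cnnm2 at FK506 6 mg/kg, and Cnnm2 at FK506 0.6 mg/kg. CsA 2.5 mg/kg gave 0 calls among 16 values at the probe sets used (limma, and 0 at an unadjusted p under 0.05). In that arm 0%, 0%, 0.0656% and 0% of genes were called by day. Rapa 10 mg/kg and Rapa 1 mg/kg each gave 1 call, Fxyd2 on day 28, while 8.16% and 5.09% of genes were lower on that day. On days 1, 7 and 14 limma called 0 members in either Rapa arm, where 1.13%, 4.3% and 5.3% of genes were lower at 10 mg/kg and 1.11%, 2.61% and 4.97% at 1 mg/kg. At an unadjusted p under 0.05 there were Kcnj16 on day 1 and Fxyd2 on day 14 at Rapa 10 mg/kg, and Fxyd2 on day 14 at Rapa 1 mg/kg.

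Between drugs, FK506 6 mg/kg against Rapa 10 mg/kg gave 10 lower calls among 16 values (3, 2, 3 and 2 by day, against 0.75%, 2.35%, 4.57% and 4.13% of all genes). The same comparison for CsA 25 mg/kg also gave 10 (3, 3, 2 and 2, against 4.08%, 3.46%, 6.74% and 9.46%). Among the FK506 6 mg/kg calls, that of Fxyd2 on day 14 was lost without quantile normalization (-0.17, adjusted p = 0.137). It was also lost in several other settings and without any 1 of most rats compared (adjusted p 0.0515 to 0.147). Set against each other, CsA 25 mg/kg and FK506 6 mg/kg gave 0 with limma and 2 at an unadjusted p under 0.05 (Egf and Kcnj16 on day 7), where 0.694%, 0.938%, 1.97% and 5.7% of genes were called. Between doses, CsA gave 7 lower calls (0, 1, 3 and 3 by day, against 0.0281%, 1.09%, 1.72% and 9.69% of genes). FK506 gave 1, Egf on day 28, where 0%, 0%, 0.0563% and 1.01% of genes were lower by day. Between the Rapa doses limma called 0 and there was 1 at an unadjusted p under 0.05 (Fxyd2 on day 28), where 0%, 0%, 0% and 0.122% of genes were called. The lower FK506 dose against the lower CsA dose gave 2, Egf on days 14 and 28, where 0.00938%, 0.581%, 0.281% and 0.928% of genes were lower by day.

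Other genes of the distal convoluted tubule fell in the same arms. Of 13 genes on the list 10 had a probe set and 9 were tested. On day 28, 5 fell under CsA 25 mg/kg (also 5 without the array of zeros), 4 under FK506 6 mg/kg, 4 under FK506 0.6 mg/kg and 0 under CsA 2.5 mg/kg (limma; 1 gene at an unadjusted p under 0.05), and none rose in these arms. Over all genes, 10.7% (7.77% without that array), 7.29% and 1.74% were lower in the first 3 of these arms. Under Rapa 10 mg/kg 1 rose, the calcium-binding protein gene S100g (0.93), and under Rapa 1 mg/kg 2 rose, S100g (0.86) and the calcium channel gene Trpv5 (0.63). The share of all genes called higher under Rapa is not given here, so these counts cannot be set against it. The median change of the 9 was -0.91 under CsA 25 mg/kg (-0.44 without that array) and -0.44 under FK506 6 mg/kg, against 0.01 for all genes in both comparisons. Calb1, the calcium buffer calbindin, fell in these 2 arms, with changes of -3.39 and -3.04. Slc12a3, the thiazide-sensitive sodium chloride cotransporter, gave -1.76 (adjusted p = 2.6e-12) and -1.72 (adjusted p = 8.74e-13), and had already fallen on day 7, by -1.96 and -2.14. The lower FK506 dose gave -3.52 for Calb1 and -1.23 for Slc12a3. The fall of Slc8a1, the sodium-calcium exchanger, was -1.35 and -1.24, and Wnk1, a kinase that controls Slc12a3, gave -0.91 and -0.80. Emx1, a transcription factor, fell by 1.29 under CsA 25 mg/kg, but the value was -0.44 without the array of zeros (adjusted p = 0.015), and gave -0.44 (adjusted p = 0.18) under FK506 6 mg/kg. Under Rapa 10 mg/kg on day 28 Calb1 gave 0.02 and Slc12a3 -0.14, neither called.

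Of 28 genes on the list of magnesium handling, Slc12a3 among them, 24 had a probe set and 21 were tested. On day 28, 4 fell under CsA 25 mg/kg and 0 rose, and 2 fell and 1 rose under FK506 6 mg/kg, with medians of -0.02 and -0.08. These counts of falls stand beside 10.7% and 7.29% of all genes, or 7.77% for CsA 25 mg/kg without the array of zeros, where 2 of the 21 fell. Over all genes 8.73% rose under FK506 6 mg/kg. Beside Slc12a3 the falls under CsA 25 mg/kg were Umod (-0.26, adjusted p = 0.00112), the uromodulin of the thick ascending limb, Casr (-0.60, adjusted p = 0.0196), the calcium-sensing receptor, and Bsnd (-1.16, adjusted p = 0.00688), the barttin subunit of chloride channels. Without the array of zeros only Slc12a3 and Umod (-0.30) were called, while Casr gave -0.55 (adjusted p = 0.0692) and Bsnd 0.08 (adjusted p = 0.805). Under FK506 6 mg/kg Umod fell by 0.25 (adjusted p = 0.00162), and Atp1b1, the beta subunit of the sodium pump, rose by 0.19 (adjusted p = 0.00387). Under Rapa 10 mg/kg limma called 0 of the 21 on that day, with 4 at an unadjusted p under 0.05.

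Among the other EGF ligands, receptors and regulators 15 of 19 were tested. On day 28, 3 rose under CsA 25 mg/kg and 0 fell, with a median of 0.10 against 0.01 for all genes: the ligand amphiregulin, Areg (1.36, SE 0.42, adjusted p = 0.0118), the adaptor Shc1 (0.40) and the ubiquitin ligase Cbl (0.30). Without the array of zeros Areg gave 1.09 (adjusted p = 0.0887), and Shc1 and Cbl were called. Over all genes 10.5% were higher in that comparison. Under FK506 6 mg/kg limma called 0 of the 15, with 0 at an unadjusted p under 0.05, and Areg gave 0.56 (adjusted p = 0.372). Of the members' paralogues 16 of 25 were tested. On day 28, 1 rose and 1 fell under CsA 25 mg/kg (also 1 and 1 without the array of zeros), where 10.5% and 10.7% of all genes did. Under FK506 6 mg/kg 8.73% of all genes rose. Fxyd5, of the same small protein family as Fxyd2, rose by 0.55 under CsA 25 mg/kg and by 0.48 under FK506 6 mg/kg. Fxyd6, another member of that family, fell by 0.54 under CsA 25 mg/kg, with -0.40 under FK506 6 mg/kg (adjusted p = 0.059).

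Markers of other cells moved in the same rats. The mean log2 level of the 10 distal convoluted tubule markers with a probe set was 8.10 to 8.66 per rat in vehicle on day 28, 7.32 to 7.62 under CsA 25 mg/kg, 7.58 to 7.77 under FK506 6 mg/kg, 7.59 to 7.81 under FK506 0.6 mg/kg and 8.38 to 8.70 under Rapa 10 mg/kg. Calcineurin inhibitor rats of these arms and vehicle rats did not overlap. For the 9 thick ascending limb markers, a segment that also makes Egf, the ranges overlapped: 9.66 to 10.09 in vehicle, 9.80 to 10.03 under CsA 25 mg/kg and 9.72 to 10.01 under FK506 6 mg/kg. Macrophage markers rose in 9 of 9 tested genes under CsA 25 mg/kg and in 6 under FK506 6 mg/kg (mean level of 10 genes 7.30 to 7.75 in vehicle, 8.16 to 9.13 and 7.79 to 8.46). Over all genes, 10.5% and 8.73% were higher in these 2 arms. Tubular injury genes rose in 8 of 11 in both arms (8.21 to 8.66 in vehicle, 9.66 to 10.41 and 9.32 to 10.39). On day 7 limma called 0 of 11 injury genes under CsA 25 mg/kg (2 at an unadjusted p under 0.05). Under FK506 6 mg/kg it called 1, Havcr1 (2.57). The share of all genes called higher on day 7 is not given here, so these counts cannot be set against it. No order in time between these genes and Egf was tested. Pvalb, the parvalbumin of the early distal convoluted tubule, was dim (mean log2 level 4.37). The part of these cells in the members' falls was not tested.

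The genes whose 28 group means were most like those of each member are given as a description, and the likeness was not tested. For Egf they were Hspb6 (Pearson r = 0.964 over 28 groups), a small heat shock protein, Calb1 (0.925), Larp1b (0.921), Wnk1 (0.911) and Hnmt (0.909), which inactivates histamine. For Cnnm2 they were Wnk1 (0.946), Sfrp2 (0.924), Hspb6 (0.923), Inpp5a (0.919) and Btbd6 (0.916), so that Wnk1 and Hspb6 stood on both lists. On day 28 Hspb6 gave -0.91 under CsA 25 mg/kg, -0.81 under FK506 6 mg/kg and 0.09 under Rapa 10 mg/kg. Fxyd2 was most like Fabp5 (0.858), Nkd2 (0.853), Bmp3 (0.838), Hagh (0.834) and Slc39a8 (0.830). Kcnj16 had weaker matches, led by Arl2bp (0.758), Kat7 (0.732), Fgfr4 (0.716), Ubl7 (0.694) and Unc45a (0.681). Among the members, Egf and Cnnm2 were the most alike (0.855, rank 19 of the genes set against Egf), followed by Egf and Fxyd2 (0.70), while Egf and Kcnj16 were not (0.194).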

How the data were processed

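Kidney RNA of each rat was extracted, labelled in one cycle and hybridized to 1 array, per the labels' protocols. The authors deposited 1 linear intensity per probe set and array (0 to 30646.3), produced with the scanner's operating software per the labels; the probe summary method and the scaling are not given in the sources used here. Of 31099 probe sets 57 were controls, 20826 carried 1 gene symbol, 436 several and 9780 none.

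Levels were log2(intensity + 16) after quantile normalization between arrays. Each of 14217 genes was read at its brightest probe set, and the 25% with the lowest mean (3554 genes) were left out as dim. Group means were estimated over all 120 arrays in a single limma model (version 3.58.1, R 4.3.3, 92 residual and 2.96 prior degrees of freedom), with two-sided tests in 62 comparisons and p-values adjusted over the 10663 genes of each comparison. The fit was tested on simulated data. Replicates are separate rats, and their number limits the precision. Alternatives were the normalization, the offset, the dim filter, the probe sets, the empirical Bayes step, the arrays in the fit, 2 covariates and leaving out each rat in groups of up to 5.

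The members, gene lists and tests were chosen with earlier results of these data known. The named genes are the members, up to 4 called genes per pathway list with the largest change on day 28 in either higher-dose calcineurin inhibitor arm, and the 5 genes most like each member. Atp1b1, S100g, Trpv5 and Wnk1 (in its list) lie outside this rule and were chosen after their values were seen, as were the comparison of FK506 0.6 mg/kg with CsA 2.5 mg/kg and the shift of the FK506 0.6 mg/kg effect from day 1 to day 28.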

Additional observations from a re-analysis of the deposited data

Results flagged for a closer look

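In groups of 4 to 10 rats each member's highest and lowest rat was checked against the gap that Dixon's 95% limit allows. Of 135 pairs of a member and a group 7 had a rat past it, and chance gives about 1 in 20. Cnnm2 had 4 of them: vehicle replicate 4 on day 1 at 8.18 (the others 7.98 to 8.01), FK506 0.6 mg/kg replicate 4 on day 1 at 8.24 (others 7.55 to 7.59), and CsA 2.5 mg/kg replicate 3 both on day 1 at 7.74 (others 8.01 to 8.06) and on day 14 at 7.58 (others 7.99 to 8.04), which are different rats. Egf had FK506 0.6 mg/kg replicate 4 on day 1 at 13.03 (others 12.95 to 12.96). Fxyd2 had FK506 0.6 mg/kg replicate 3 on day 14 at 12.91 (others 13.06 to 13.08). Kcnj10, which is dim, had FK506 0.6 mg/kg replicate 3 on day 7 at 4.50 (others 5.09 to 5.18).

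Effects on 2 days differed by a test of the difference itself in 7 cases. For Egf the change from day 1 to day 28 was -1.09 under CsA 25 mg/kg, -1.05 under FK506 6 mg/kg and -0.78 under FK506 0.6 mg/kg, and from day 7 to day 28 it was -0.79 under CsA 25 mg/kg and -0.48 under FK506 6 mg/kg. For Fxyd2 under Rapa 10 mg/kg it was -0.28 from day 1 and -0.31 from day 7. The FK506 6 mg/kg shift of Egf from day 7 and both Fxyd2 shifts were lost in other settings.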

How the results depend on the processing

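No paired analysis was possible because the labels carry no shared replicate numbers and different rats were killed in each group. No called value changed sign under any of the 12 other settings or when 1 rat was left out. The day 28 change of Egf ran from -1.34 to -1.23 under CsA 25 mg/kg and from -1.42 to -1.25 under FK506 6 mg/kg with 1 rat left out. With only the 5 vehicle rats left out in turn, the Rapa 10 mg/kg change ran from -0.26 to -0.23. Rats of the 3 day 28 groups of 6 (FK506 0.6 mg/kg and both Rapa doses) were not left out, so no range given here covers them. Under the 12 other settings, counts of called members moved by over 1.5 times only in comparisons that had 0 or 1 call, and there in many cases. With 1 rat left out, the count for FK506 0.6 mg/kg against vehicle also moved that far, from 5 down to 3. The FK506 6 mg/kg shift from day 7 to day 28 went from 1 to 0 without quantile normalization, with no dim filter, with all probe sets apart, with only the arrays of the days compared, without the high Alb arrays and with the hybridization covariate. Rapa 1 mg/kg against vehicle went from 1 to 0 with no dim filter, with all probe sets apart, with only the arrays of the days compared and with either covariate. Without quantile normalization its Fxyd2 call of day 28 was lost (-0.11, adjusted p = 0.227), while Fxyd2 was called on day 14 (-0.25, adjusted p = 0.00793). Both Rapa 10 mg/kg shifts went from 1 to 0 without quantile normalization, and the one from day 1 also with the Gapdh covariate. CsA 25 mg/kg against FK506 6 mg/kg went from 0 to 1 with an intensity trend, with only the arrays of the days compared and with either covariate. FK506 6 mg/kg against 0.6 mg/kg went from 1 to 0 with only the arrays of the days compared and with the hybridization covariate. Rapa 10 mg/kg against vehicle went to 2 with only the arrays of the days compared, the FK506 6 mg/kg shift from day 1 to 2 with an intensity trend, and the CsA 25 mg/kg shift from day 7 to 2 with the Gapdh covariate. The cause was not tested.

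With 1 rat left out, counts ran from 7 to 9 for CsA 25 mg/kg, 7 to 8 for FK506 6 mg/kg, 3 to 6 for FK506 0.6 mg/kg, 0 to 0 for CsA 2.5 mg/kg, 1 to 1 for Rapa 10 mg/kg and 0 to 1 for Rapa 1 mg/kg against vehicle. They ran from 0 to 1 for CsA 25 mg/kg against FK506 6 mg/kg, 9 to 10 for CsA 25 mg/kg and 8 to 10 for FK506 6 mg/kg against Rapa 10 mg/kg, and 6 to 7 for CsA, 0 to 1 for FK506 and 0 to 0 for Rapa between doses. The shifts gave 1 to 1 (CsA 25 mg/kg), 1 to 2 (FK506 6 mg/kg), 1 to 1 (FK506 0.6 mg/kg) and 1 to 1 (Rapa 10 mg/kg) from day 1, and 1 to 2, 0 to 1 and 0 to 1 (CsA 25 mg/kg, FK506 6 mg/kg, Rapa 10 mg/kg) from day 7. Vehicle over time gave 0 to 0, and FK506 0.6 mg/kg against CsA 2.5 mg/kg 2 to 2. Signal over background limits Kcnj10.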
